A study of Homo sapiens with 6 samples.

Results

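The MiT/TFE transcription factors TFEB, TFE3 and MITF, the coactivator gene PPARGC1A, which encodes PGC-1α, and GPNMB, a gene known to respond to these factors, were followed in H460 cells. They are 5 of the 31762 genes in the deposited table of read counts, each was found there by its symbol, and no symbol was repeated. The factors, with 2 genes known to respond to TFEB, were chosen by their role but with the fold changes of fluoxetine over control in these same libraries already known, so those fold changes are a description here, without a test. H460 is a human lung carcinoma cell line that carried no engineered change here (genotype WT). Fluoxetine is an antidepressant that inhibits serotonin reuptake, and the study asked which transcripts differ after its use. Total RNA was sequenced from 3 control libraries and 3 libraries of cells kept in 20 µM fluoxetine for 24 h. The vehicle of the control cells is not given in the sources used here, nor whether the replicates came from separate cultures, so the p-values below measure only the spread between these libraries, which may be technical.

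MiT/TFE factors are basic helix-loop-helix leucine zipper proteins that bind DNA as dimers formed within their own family. When nutrients are plentiful, Rag GTPases and folliculin bring them to the lysosome, where mTORC1 phosphorylates them, and 14-3-3 proteins then hold them in the cytosol. When lysosomes are stressed the phosphate is removed, the factors enter the nucleus, and they activate the CLEAR genes, named after a palindromic element around the letters CACGTG in lysosomal and autophagic promoters. TFEB and TFE3 are known for this lysosomal programme in many epithelial cells. MITF is the master regulator of melanocytes, and its forms start at several promoters. PGC-1α is a transcriptional coactivator of mitochondrial genes, and GPNMB is a transmembrane glycoprotein of melanosomes, macrophages and stressed lysosomes.

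The libraries held between 16157507 and 27823667 reads counted on genes, and every fluoxetine library was shallower than every control library. Levels are given in CPM, the counts of a gene per 1000000 counts of its library after TMM scaling, and means are given ± SD over the 3 libraries of a group. A count of 0 allows up to 3 counts, worth 0.108 to 0.186 CPM, and this limit covers counting error only. The keratin genes of epithelial cells were abundant, with KRT8 the highest, at 1844 ± 355.0 CPM without and 1462 ± 168 CPM with fluoxetine (n = 3 each), groups that overlapped. Of 4 tested epithelial genes 0 rose and 1 fell, KRT18, which was named after its value was seen and went from 511.5 ± 45.0 to 311.6 ± 39.2 CPM (edgeR adjusted p = 0.00162). EPCAM, also an epithelial marker, stayed at 0.414 and 0.376 CPM on average. CDH1, which encodes E-cadherin, had no count in the 3 control libraries, which allows up to 0.155 CPM, so that both of these defining epithelial genes were at or near 0. In bulk RNA such as this, fewer cells of a type and less RNA per cell cannot be told apart.

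Among the MiT/TFE factors, TFE3 was by far the most abundant transcript. To compare genes, CPM was divided by the length of all annotated exons of the gene in kb. In control cells this level per length was 28.4 ± 2.95 CPM per kb for TFE3, 2.85 ± 0.290 for MITF, 0.784 ± 0.253 for TFEB and 0.0247 ± 0.0106 for TFEC, the remaining gene of the family. The ranges of these 4 genes did not overlap in control cells, and the order was the same after fluoxetine, where the means were 26.3, 2.18, 0.703 and 0.0140 CPM per kb. TFE3 made up between 87.2% and 90.3% of the summed level per length of the family in a library, MITF between 7.20% and 11%, and TFEB between 1.76% and 3.03%. With the length of the longest transcript in place of all exons, the share of TFE3 lay between 84.3% and 87.7%. TFEC was counted 6, 5 and 3 times in the control libraries and 4, 2 and 0 times in the fluoxetine libraries, too few for a comparison, and it did not pass the filter on low counts.

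**Figure D1:**
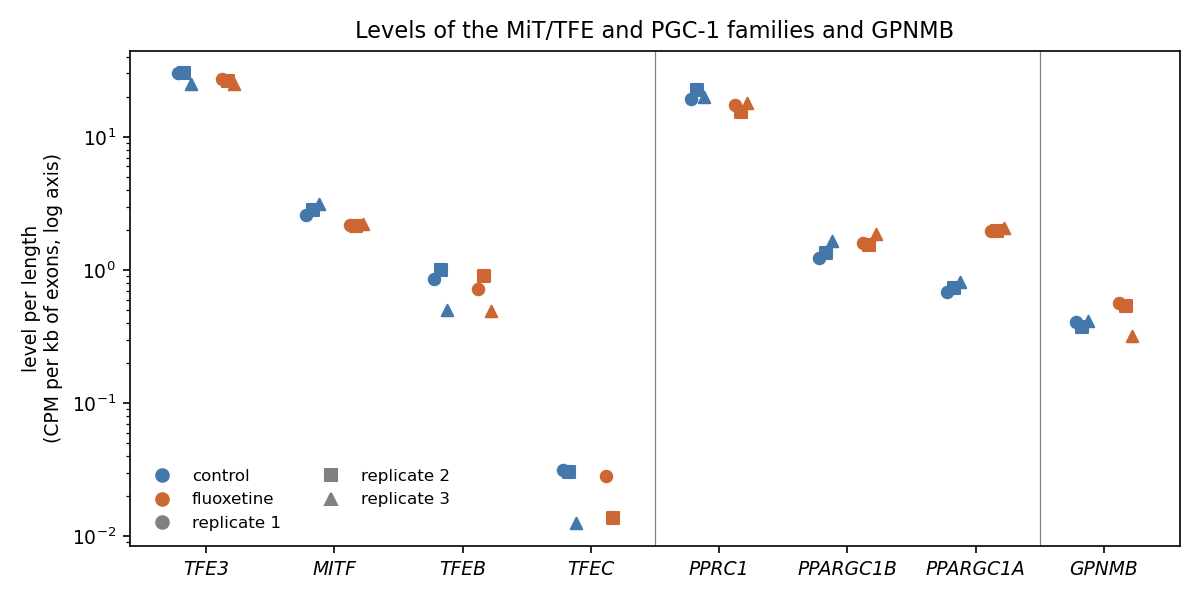
Level per length (CPM per kb of annotated exons, log axis) of the MiT/TFE family, the PGC-1 family and GPNMB in each library, with blue for control, orange for fluoxetine and the symbol for the replicate number. TFE3 lies between 25 and 30.1 CPM per kb in control cells and PPARGC1A between 0.684 and 0.812, and the library without a count of TFEC is not drawn.

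TFEB (ENSG00000112561, chromosome 6, 41683978 to 41736259, minus strand, GRCh38) was a low transcript. The control libraries, in the order of their replicate numbers here and below, held 106, 108 and 79 reads of it, or 4.81, 5.63 and 2.85 CPM. The fluoxetine libraries held 67, 85 and 48 reads, or 4.07, 5.06 and 2.80 CPM. The groups overlapped, and the lowest library was replicate 3 in each of them. The log2 fold change of fluoxetine over control was -0.14 (standard error 0.28). The SD was 32.3% of the mean in control cells and 28.5% after fluoxetine, while counting error alone would give about 10.2% and 12.5%. TFEB had the largest relative SD of the 3 factors in both groups, and its direction was not settled, since the log2 fold change was -0.42 without control replicate 3, -0.38 without fluoxetine replicate 2, 0.03 without control replicate 2 and 0.04 without fluoxetine replicate 3.

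TFE3 (ENSG00000068323, chromosome X, 49028726 to 49043486, minus strand) encodes a factor with lysosomal targets in common with TFEB. Its level was 129, 129 and 107 CPM in the control libraries and 118, 113 and 107 CPM in the fluoxetine libraries. Control replicate 3 lay with the fluoxetine libraries, so the groups overlapped. The log2 fold change was -0.11 (standard error 0.09), with values between -0.23 and -0.09 over 15 alternatives. The value of -0.23 was that without control replicate 3. As deposited, and scaled by TMM, neither TFEB nor TFE3 thus showed a shift of transcript level larger than the spread between libraries. Once trends on GC content and transcript length were removed, the TFE3 groups no longer overlapped, as given below. The log2 fold change of TFE3 was then -0.12, and TFE3 still did not pass the threshold on adjusted p-values used below.

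MITF (ENSG00000187098, chromosome 3, 69739435 to 69968337, plus strand) was lower after fluoxetine. Its level was 18.5, 20.3 and 22.7 CPM in the control libraries and 15.7, 15.3 and 15.9 CPM in the fluoxetine libraries. Every fluoxetine library lay below every control library, and the fluoxetine libraries were close to each other, with an SD of 2.01% of their mean. The log2 fold change was -0.39 (standard error 0.11), a fold of 0.762. It was between -0.50 and -0.34 over the 15 alternatives. Reads of the several MITF forms were counted together, so the values do not say which form was lower.

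PPARGC1A (ENSG00000109819, chromosome 4, 23755041 to 23904089, minus strand) was the gene of the 5 that differed most. The control libraries held 164, 152 and 245 of its reads, and the shallower fluoxetine libraries held 350, 357 and 387. Its level was 7.44, 7.92 and 8.83 CPM in control cells and 21.3, 21.2 and 22.5 CPM after fluoxetine. The lowest fluoxetine library was well above the highest control library. The control mean of 8.06 ± 0.705 CPM compares with 21.7 ± 0.746 CPM after fluoxetine (n = 3 each). The fold was 2.68, and the log2 fold change of 1.42 (standard error 0.11) was above that of 99.4% of the tested genes. Over the 15 alternatives it lay between 1.27 and 1.46. The antisense genes AC093607.1 and AC092834.1, which overlap PPARGC1A, had at most 2 and 6 counts in a library.

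GPNMB (ENSG00000136235, chromosome 7, 23235967 to 23275108, plus strand) was the lowest of the 5. Its level was 2.45, 2.24 and 2.49 CPM in control cells and 3.40, 3.21 and 1.92 CPM after fluoxetine. The replicates 1 and 2 of the fluoxetine group lay above all control libraries and replicate 3 below all of them, so the groups overlapped. The log2 fold change was 0.24 (standard error 0.24), and it was 0.44 without fluoxetine replicate 3 but 0.07 without fluoxetine replicate 1. The number of reads, 33 to 69 per library, limits the precision, since counting error alone would give an SD of about 13.6% of the mean in control cells and 14.8% after fluoxetine.

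**Figure D2:**
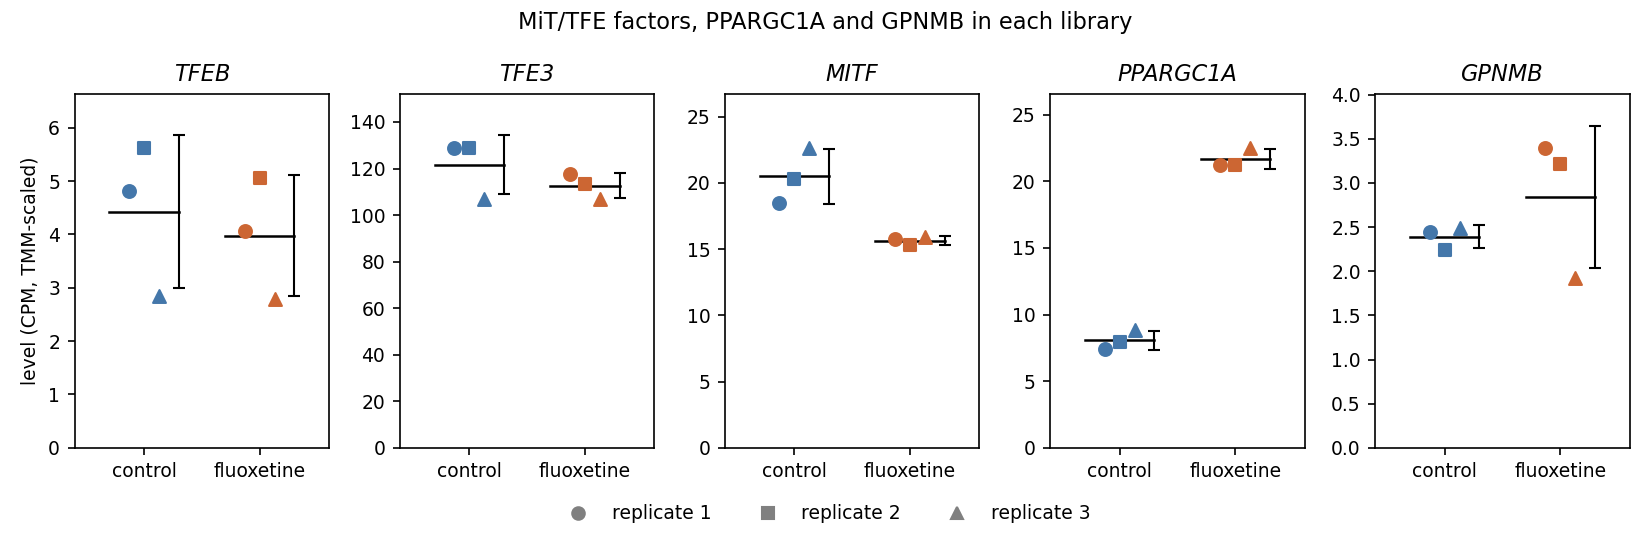
Level of each gene (CPM, linear axes from 0, a scale of its own per panel) in the 3 control and 3 fluoxetine libraries, with the symbol for the replicate number, a line for the mean and a bar for the SD. PPARGC1A is at 7.44 to 8.83 CPM in control cells and 21.2 to 22.5 CPM after fluoxetine, MITF is lower in each fluoxetine library, and the libraries of TFEB, TFE3 and GPNMB overlap.

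Of the 15646 tested genes, 13.1% passed an adjusted p-value of 0.05 (edgeR) in either direction, and this threshold is used throughout. All 5 genes were tested, and 2 of them, PPARGC1A and MITF, passed that threshold. The same 2 were the genes without overlap between the groups, which was the case for 31.9% of the tested genes. With a fold change of at least 2 as well, 1.25% of the tested genes passed as higher and 0.147% as lower, and PPARGC1A was the only gene of the 5 to pass. Nothing is read from these counts, as the genes were chosen with this comparison known. PPARGC1A passed under each of the 15 alternatives, while MITF passed under 9 of them. These passes come from the same libraries and are no test of either gene. MITF did not pass when scaled by library size only, with all libraries thinned to equal depth, without control replicate 2, or without fluoxetine replicate 1, 2 or 3.

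**Figure D3:**
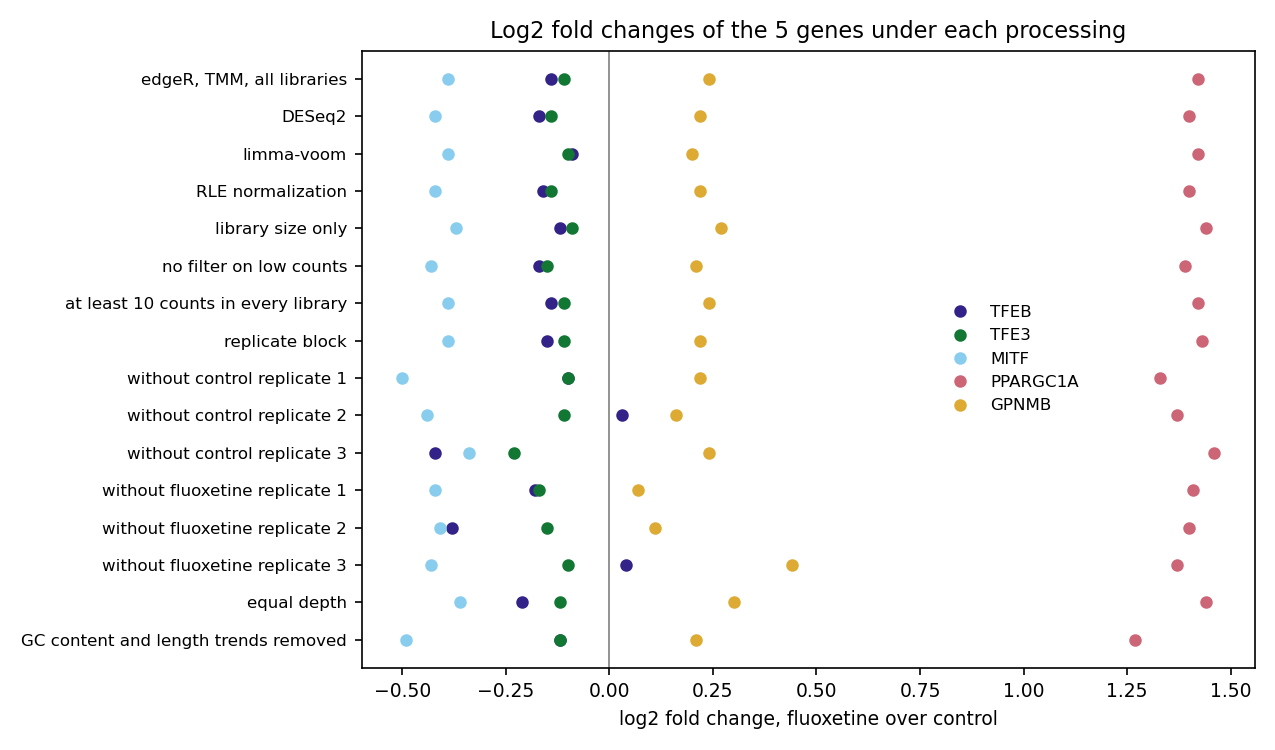
Log2 fold change of fluoxetine over control (x axis) of the 5 genes under the edgeR fit and each of the 15 alternatives (y axis). PPARGC1A stays between 1.27 and 1.46 and MITF between -0.50 and -0.34, while TFEB lies on either side of 0.

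The libraries also differed in how they weighted genes by base composition. For each library the median log2 deviation of genes above the upper GC quartile was taken minus that of genes below the lower quartile. This difference was 0.201, 0.229 and -0.229 for the control libraries by replicate number, and -0.079, 0.085 and -0.212 for the fluoxetine libraries. The longest transcripts of TFEB and TFE3 are rich in GC, at 57.7% and 59.8%, and those of MITF and PPARGC1A poorer, at 41.4% and 40.5%. The level of TFEB and TFE3 was lowest, and that of PPARGC1A highest, in the replicate 3 library of each group. Once a trend on GC content and a trend on transcript length had been subtracted from each library, the SD of the log2 level among control libraries went from 0.15 to 0.01 for TFE3, from 0.15 to 0.07 for MITF and from 0.12 to 0.01 for PPARGC1A. The TFE3 log2 levels were then 6.94, 6.92 and 6.93 in control and 6.85, 6.75 and 6.83 in fluoxetine libraries, so that the groups no longer overlapped. TFE3 still did not pass the threshold, and the share of all tested genes without overlap after this removal is not given here. For TFEB the SD went only from 0.50 to 0.38. The log2 fold changes were then -0.12 for TFEB, -0.12 for TFE3, -0.49 for MITF, 1.27 for PPARGC1A and 0.21 for GPNMB, so each gene kept its direction. Over all tested genes 1569 then rose and 2276 fell, against 1214 and 833 before. The part of base composition in these values beyond that was not tested.

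The promoters were read from RefSeq (GRCh38.p14), in windows of 250 bases before to 50 bases after each annotated start, with 10 such windows for the 5 genes. They were searched on both strands for the E-box CACGTG, for its longer form TCACGTG, for CATGTG, the core of the M-box of melanocyte genes, and for TGACGT, the core of the cyclic AMP response element. CACGTG is in 7.26% of all 35116 windows, TCACGTG (which contains it) in 3.71%, CATGTG in 11.1% and TGACGT in 7.98%. No window of TFEB (3 starts) or TFE3 (1 start) held these letters, nor did the other MITF starts, so their sequences are not shown. The 4 windows with a match are printed below up to the base before the start, 5′ to 3′ on the strand of the gene, with the matched letters in capitals. A match is a description of the sequence, and binding was not measured.

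GPNMB, the transcript that is a known target, has CATGTG (as its reverse complement) at 123 and 62 bases before the start, in chr7:23246525-23246774, plus strand. PPARGC1A, the transcript that was higher, has CATGTG at 129 bases before the start that lies within the counted gene, in chr4:23881102-23881351, minus strand. A start of PPARGC1A farther upstream lies outside the span of the counted gene, at -568816 bases from its 5′ end. That start has the E-box with its flanking T at 123 bases before it, in chr4:24472906-24473155, minus strand. Use of that start in these cells was not measured. MITF, the transcript that was lower, has the palindrome of the TGACGT core, matched on both strands 152 and 150 bases before the start known for melanocytes, in chr3:69936342-69936591, plus strand.
GPNMB: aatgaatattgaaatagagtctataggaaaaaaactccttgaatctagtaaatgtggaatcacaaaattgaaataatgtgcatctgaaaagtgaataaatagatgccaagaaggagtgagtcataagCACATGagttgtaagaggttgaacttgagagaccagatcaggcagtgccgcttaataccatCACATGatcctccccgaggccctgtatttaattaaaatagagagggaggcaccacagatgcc
PPARGC1A, start within the counted gene: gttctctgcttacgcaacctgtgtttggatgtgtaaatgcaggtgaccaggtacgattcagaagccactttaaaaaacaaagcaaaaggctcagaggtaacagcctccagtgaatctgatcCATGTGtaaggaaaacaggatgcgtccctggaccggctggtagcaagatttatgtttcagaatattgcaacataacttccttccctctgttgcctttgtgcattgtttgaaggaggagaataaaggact
PPARGC1A, upstream start: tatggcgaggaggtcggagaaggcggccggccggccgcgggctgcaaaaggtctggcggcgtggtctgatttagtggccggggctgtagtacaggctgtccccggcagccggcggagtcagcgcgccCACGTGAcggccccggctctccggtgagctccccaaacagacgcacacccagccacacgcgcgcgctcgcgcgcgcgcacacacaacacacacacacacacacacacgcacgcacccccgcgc
MITF, melanocyte start: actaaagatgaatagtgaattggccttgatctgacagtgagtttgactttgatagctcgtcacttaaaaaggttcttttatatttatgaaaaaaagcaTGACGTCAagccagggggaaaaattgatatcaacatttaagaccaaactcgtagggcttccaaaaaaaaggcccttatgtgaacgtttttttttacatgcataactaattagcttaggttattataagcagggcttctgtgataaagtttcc

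Several genes whose proteins control where the MiT/TFE factors reside were higher after fluoxetine. This list and those below were chosen with earlier results of these data known, so their counts and p-values are a description and no test of the lists. Of a list of 37 such genes, all tested, 9 rose and 1 fell, or 27.0% of the list. Beside this, 7.76% of all tested genes rose and 5.32% fell, or 13.1% in either direction. The median log2 fold change of the list was 0.10, beside 0.0325 for all tested genes. RRAGD, a Rag GTPase, rose from 4.77 ± 0.390 to 27.7 ± 2.98 CPM, or by 2.54 ± 0.13 (standard error) on the log2 scale, with an edgeR adjusted p of 1.88e-06. FNIP1, a partner of folliculin, rose by 1.58, folliculin itself (FLCN) by 1.16 and the Rag GTPase RRAGC by 1.17 in log2 terms, and their edgeR adjusted p-values were 4.75e-05, 5.29e-05 and 0.00117. RRAGD, FNIP1, FLCN and RRAGC each passed under all 15 alternatives. Whether these controllers themselves respond to the MiT/TFE factors was not tested, so their rises are not read as a change upstream of the factors. The gene that fell was YWHAE, which encodes a 14-3-3 protein (log2 fold change -0.30, adjusted p = 0.0174 from edgeR) and was named after its value was seen. The 9 rises were 5 without fluoxetine replicate 1, and the falls numbered 4 without control replicate 3, 3 without fluoxetine replicate 2 and 0 without fluoxetine replicate 1 or 3.

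CLEAR genes, the lysosomal and autophagic targets, were mostly higher. Of 41 listed genes, all tested, 32 rose and 0 fell, where 7.76% of all tested genes rose and 5.32% fell. The median log2 fold change was 0.54, and 40 of the 41 were above 0. NEU1, the lysosomal sialidase, rose from 29.8 ± 2.26 to 125.6 ± 8.31 CPM, or by 2.07 ± 0.09 (standard error) on the log2 scale, with an edgeR adjusted p of 6.59e-07. The subunit ATP6V1C1 of the proton pump rose by 1.02 and the autophagy receptor SQSTM1 by 1.05 in log2 terms, with edgeR adjusted p-values of 2.14e-05 and 2.33e-05. Over the alternatives the rises numbered between 22, without fluoxetine replicate 1, and 38, once GC and length trends were removed. In the same libraries the transcripts of TFEB and TFE3 overlapped between the groups and that of MITF was lower. For TFE3 this overlap held only before the trends on GC content and transcript length were removed. TFE3 did not pass the threshold before or after that removal. Where the factors resided and whether they bound CLEAR genes was not measured, and their part in these rises was not tested.

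**Figure D4:**
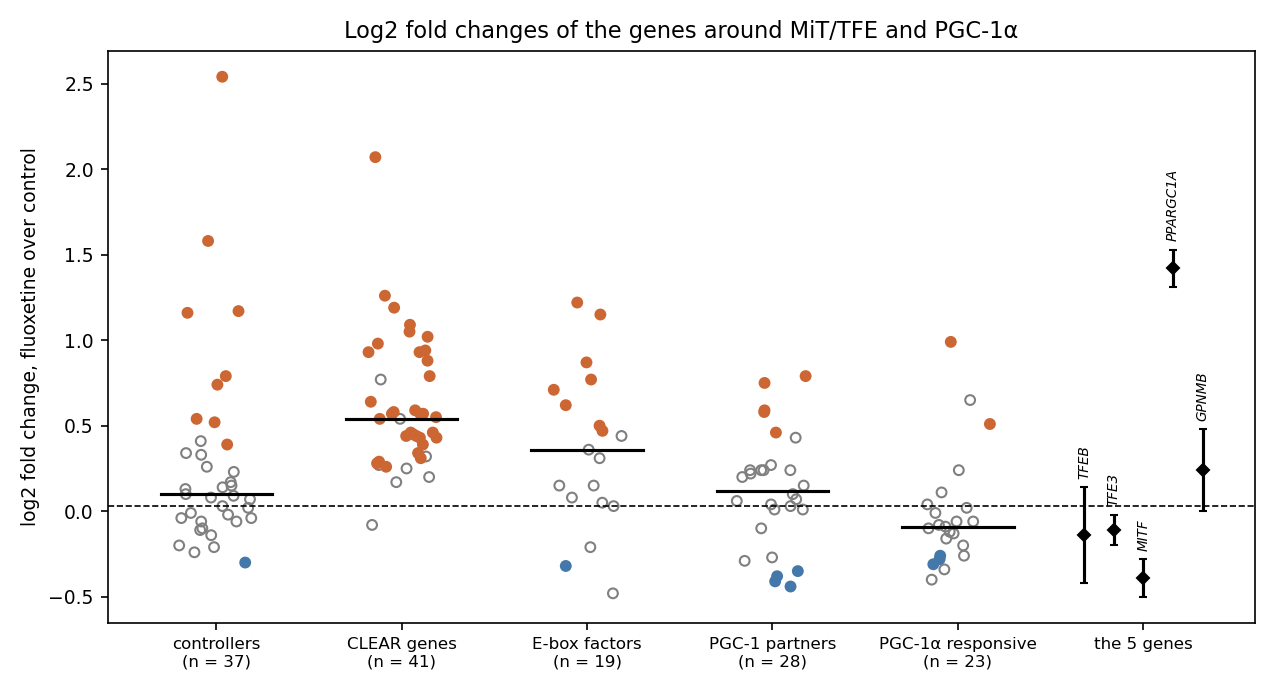
Log2 fold change of fluoxetine over control for each tested gene of 5 lists and for TFEB, TFE3, MITF, PPARGC1A and GPNMB (diamonds with standard errors). Filled points passed an adjusted p-value of 0.05 (orange higher, blue lower), open points did not, black lines are list medians and the dashed line is the median of all tested genes at 0.0325. The CLEAR genes have a median of 0.54 and the PGC-1α responsive genes of -0.09.

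Other helix-loop-helix factors bind the same CACGTG letters as the MiT/TFE factors. Of 20 listed, 19 were tested, 8 rose and 1 fell, or 47.4% of those tested. Over all tested genes 7.76% rose and 5.32% fell, or 13.1% in either direction. The median log2 fold change of the list was 0.36, beside 0.0325 for all tested genes. The circadian repressors BHLHE40 and BHLHE41 rose by 1.15 and 1.22 on the log2 scale (adjusted p = 1.51e-05 and 5.83e-04 from edgeR). SREBF2, the regulator of cholesterol synthesis genes, rose by 0.77 and the clock factor NPAS2 by 0.50 (adjusted p = 3.39e-04 and 0.00316 from edgeR). The factor that fell, USF1, was named after its value was seen (log2 fold change -0.32, adjusted p = 0.0443 from edgeR). The 8 rises were 5 without control replicate 1 and 5 without fluoxetine replicate 1, and no gene (0) fell without control replicate 1 or 2, without fluoxetine replicate 1 or 3, or when scaled by library size only, while 3 fell without control replicate 3. By level in CPM, SREBF2 at 101 ± 10.5 in control cells was near TFE3, and BHLHE41 at 3.64 ± 0.293 was near TFEB, although these levels are not per length.

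PPARGC1A has 2 relatives in the PGC-1 family, PPARGC1B and PPRC1, which also encode coactivators. PPRC1 had 20.6 ± 1.6 and 17 ± 1.37 CPM per kb in control and fluoxetine libraries, PPARGC1B 1.41 ± 0.220 and 1.66 ± 0.174, and PPARGC1A 0.742 ± 0.0648 and 1.99 ± 0.0686. In control cells PPARGC1A was thus the lowest of the 3 with no overlap. After fluoxetine its 1.95 to 2.07 CPM per kb lay above the 1.54 to 1.86 of PPARGC1B. The log2 fold changes of PPARGC1B and PPRC1 were 0.24 and -0.27 (adjusted p = 0.276 and 0.0643 from edgeR), and both genes were named outside the rule as the relatives of PPARGC1A.

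The factors that PGC-1α works with and its upstream regulators were listed together. Of 28 listed and tested genes, 5 rose and 4 fell, beside 7.76% and 5.32% of all tested genes, and the median log2 fold change was 0.12, beside 0.0325 for all tested genes. PRKAA2, a catalytic subunit of AMPK, rose by 0.79 on the log2 scale (adjusted p = 0.00273 from edgeR). MEF2D, a transcription factor at the PPARGC1A promoter, rose by 0.59, FOXO1 by 0.58 and ATF2 by 0.46 (adjusted p = 0.00230, 0.0104 and 0.0175 from edgeR). FOXO1 did not pass without control replicate 2 (adjusted p = 0.0595 from edgeR), and ATF2 did not pass without control replicate 1 or 2 or fluoxetine replicate 1 or 3 (adjusted p between 0.0684 and 0.0946 from edgeR). The genes that fell, named after their values were seen, were NRF1, KAT2A, PRMT1 and MYBBP1A, with log2 fold changes between -0.44 and -0.35. They numbered 6 without control replicate 3 and 0 without control replicate 2 or fluoxetine replicate 1 or 3, and the 5 rises were 2 without control replicate 2 and 3 without control replicate 1 or fluoxetine replicate 1 or 3.

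Mitochondrial and metabolic genes known to respond to PGC-1α were listed as well. Of 25 listed genes 23 were tested, 2 rose and 3 fell, beside 7.76% and 5.32% of all tested genes, and the median log2 fold change was -0.09, with 7 genes above 0. PDK4, a kinase that restrains pyruvate oxidation, rose from 14.0 ± 1.22 to 28.0 ± 0.565 CPM, or by 0.99 ± 0.10 (standard error) on the log2 scale, with an edgeR adjusted p of 2.40e-04. SOD2, the mitochondrial superoxide dismutase, rose by 0.51 (adjusted p = 7.73e-04 from edgeR), but once GC and length trends were removed its log2 fold change was 0.27 (adjusted p = 0.0939 from edgeR). The fatty acid dehydrogenase ACADVL, cytochrome c (CYCS) and the mitochondrial transcription factor TFAM fell, with log2 fold changes of -0.31, -0.26 and -0.28 (adjusted p = 0.0284, 0.0327 and 0.0410 from edgeR), TFAM being named after its value was seen. The 3 falls were 1 without control replicate 1 or 2, 6 without control replicate 3 and 0 without fluoxetine replicate 1 or 3.

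Genes that mark the cells best known for MITF and GPNMB were mostly low. Of 16 melanocyte genes 13 were measured, and TYR, TRPM1 and SOX10 were not found by symbol in the deposited table of read counts. That table lists no gene without any count. Of the 13, 8 stayed below 1 CPM in all libraries. The most abundant of the list was RAB27A, also used by other secretory cells, at 19.5 ± 1.64 and 16 ± 0.888 CPM. The summed level of the list was 32.1 to 34.0 CPM in control and 28.0 to 31.5 CPM in fluoxetine libraries, and 0 of its 6 tested genes passed the threshold. Of 12 macrophage and osteoclast genes 10 were measured, and AIF1 and TREM2 were likewise not found by symbol. Of the 10, 7 stayed below 1 CPM in all libraries, with PTPRC at 0.0588 and 0.0595 CPM on average. The most abundant was CTSK, at 4.07 ± 0.626 and 4.70 ± 0.0856 CPM, and the sum was 6.45 to 8.48 CPM in control and 7.85 to 8.93 CPM in fluoxetine libraries, with 0 of 3 tested genes past the threshold. Of 6 fibroblast genes, 4 were tested, of which 1 rose and 1 fell. COL3A1, the most abundant, fell from 18.3 ± 1.56 to 12.7 ± 0.825 CPM, and LUM, named after its value was seen, rose from 4.52 ± 0.622 to 8.36 ± 0.393 CPM (edgeR adjusted p = 0.0145 and 0.00448). COL3A1 did not pass without fluoxetine replicate 1. The sum of the fibroblast list was 30.5 to 32.7 CPM in control and 29.1 to 29.8 CPM in fluoxetine libraries. The part of these cell types in the values of MITF and GPNMB was not tested.

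The genes whose profiles were most like each of the 5 were ranked by the root mean square difference of the log2 level over the 6 libraries, each relative to its control mean, among 14268 other genes with a mean of at least 1 CPM. For PPARGC1A they were ACSL1, FADS1 and AC068888.1, at 0.0411, 0.0554 and 0.0824. For MITF they were FAM72C, IFI44L and FAM72B, at 0.0237, 0.0378 and 0.0392, where FAM72B and FAM72C are near-identical copies with uncertain counts. For TFE3 they were FIZ1, GSK3A and SKIV2L, between 0.0242 and 0.0316. For TFEB they were FAAP20, WDR34 and NPDC1, between 0.0660 and 0.0798. The least close matches were those of GPNMB, with IRAK3, MRC2 and SLC9A9 between 0.0934 and 0.108. These distances are a description over 6 libraries.

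The deposited annotation gives TFEB, TFE3 and MITF 1 pathway in common, mitophagy, the removal of mitochondria by autophagy. Of the 58 other tested genes of that pathway, 11 rose and 3 fell, or 24.1%, with a median log2 fold change of 0.10. For all tested genes, 7.76% rose and 5.32% fell, or 13.1% in either direction, and the median was 0.0325. SQSTM1, OPTN and BNIP3L had the smallest p-values among the rises, and PGAM5, BCL2L1 and E2F1 fell. The rises SQSTM1 and GABARAPL1 were also counted among those of the CLEAR genes, so the pathway is not a separate observation. This pathway was chosen after the values were seen.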

How the data were processed

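H460 cells were sequenced in 3 control and 3 fluoxetine libraries, grouped by the deposited sample labels. The authors deposited raw counts per gene, without normalization or pooling. According to the submitters' processing notes, per the labels, fastp 0.20.0, HISAT2 2.1.0, HTSeq 0.10.0 and DESeq2 1.18.1 were used, while the genome build, the annotation and the use of strand are not given in the sources used here. If reads were counted without strand, sense and antisense reads could not be told apart. The deposited log2 fold changes and p-values of the authors' own comparison were not used. The coordinates are those of GRCh38, since the deposited spans match GENCODE release 29 exactly for 96.81% of 31635 common genes. Exon lengths and GC content come from that release.

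The counts were fitted in R 4.3.3 with edgeR 4.0.16 (quasi-likelihood test, TMM, factors 0.985 to 1.02, no covariate), after filterByExpr had left 15646 genes, and p-values were adjusted over all of these by Benjamini-Hochberg (threshold 0.05). The standard error is the log2 fold change divided by the square root of F. The fit was tested on simulated data. The genes and lists were chosen with earlier results of these data known. Genes named were the 5 genes, TFEC, genes that overlap them, up to 4 called genes of each list by smallest p, the most abundant gene of each cell type list and the 3 nearest profiles, and other names are marked. A gene that the rule names is not reported here. The alternatives were DESeq2 1.42.0, limma-voom (limma 3.58.1), RLE, library size only, no filter, a minimum of 10 counts per library, a replicate block, and each library left out in turn. Equal depth (16157507 counts) and removal of GC content and length trends were chosen after seeing the data. GC content was known for 99.71% of the tested genes.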

Additional observations from a re-analysis of the deposited data

How the results depend on the processing

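PPARGC1A stayed higher and MITF and TFE3 lower under all 15 alternatives, GPNMB kept a log2 fold change above 0, and TFEB lay on both sides of 0. Leaving out 1 library gave log2 fold changes of 1.33 to 1.46 for PPARGC1A, -0.50 to -0.34 for MITF, -0.23 to -0.10 for TFE3, 0.07 to 0.44 for GPNMB and -0.42 to 0.04 for TFEB. With GC content and length trends removed PPARGC1A was at 1.27. With the length of the longest transcript, control levels were 35.6 CPM per kb for TFE3, 4.26 for MITF and 1.71 for TFEB, in the same order. Counts of 33 to 108 reads limit TFEB and GPNMB.

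Same-numbered libraries did not deviate together in every pair (r = 0.0297, 0.116 and 0.392 across genes), and control replicate 1 was closer to fluoxetine replicate 2 (r = 0.32), so the numbers were not taken to pair them. With the replicate block no gene of the 5 changed its call, 2231 genes rose and 1787 fell (1214 and 833 without it), 237 rose and 42 fell at least 2-fold (195 and 23 without it), and falls numbered 2 among controllers, 5 among PGC-1α responsive genes (with 4 rises) and 2 among E-box factors. Without a filter 1393 genes rose and 1516 fell, 47 of the latter at least 2-fold, with 2 controllers, 5 PGC-1α responsive genes and 2 E-box factors. With at least 10 counts in every library 11 fell at least 2-fold, and with library size only 0 E-box factors fell. With GC content and length trends removed 1569 genes rose and 2276 fell, so that falls outnumbered rises, and among the falls were 5 controllers, 5 PGC-1α responsive genes (with 1 rise) and 2 E-box factors. Without 1 library 409 (without fluoxetine replicate 1) to 1627 (without control replicate 3) genes rose and 163 to 2006 fell, 140 to 213 and 9 to 64 at least 2-fold. The lists then held 22 to 30 rises for CLEAR genes, 5 to 10 rises and 0 to 4 falls for controllers, 2 to 6 and 0 to 6 for PGC-1α partners, 2 and 0 to 6 for PGC-1α responsive genes, and 5 to 8 and 0 to 3 for E-box factors. Apart from the fewer libraries or genes of some settings, the cause was not tested.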
